A study of Rattus norvegicus with 12 samples.

Results

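Fast was compared with slow skeletal muscle of aged rats whose mothers had been short of protein. The comparison takes 6 of the 12 RNA-seq libraries of the study: restriction libraries 32, 33 and 35, whose title numbers are over 20, against restriction libraries 12, 13 and 15, whose title numbers are under 20. All 6 are from male offspring aged 540 days, whose dams ate a diet of 6% protein while pregnant and while nursing. The control libraries, 3, 8 and 9 against 23, 28 and 29, are from males of the same age born to dams on a control diet. They are used here to ask whether the same contrast differs between the diets. They also enter the filter and the shared estimate of spread of the restriction test, so its calls depend in part on them. No strain, genotype or later treatment is named in the sources used here. The study took soleus and extensor digitorum longus, but the labels call every sample skeletal muscle without saying which. The sets are therefore named from their contractile transcripts. Libraries 12, 13 and 15 carried the slow isoforms and are called the slow set, and libraries 32, 33 and 35 carried the fast isoforms and are called the fast set. Whether each library is a separate animal is not stated, so the tests measure how far these libraries vary, which may be technical. A slow and a fast library may share an animal, and littermates are not marked.

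Skeletal muscle fibres come as slow and fast types, which build the same sarcomere from different members of the same protein families. Slow fibres shorten slowly, take up calcium slowly, resist fatigue and burn fat and sugar in mitochondria, whereas fast fibres contract and relax quickly and break down glycogen to lactate. The soleus is a postural calf muscle rich in slow fibres in the rat, and the extensor digitorum longus lifts the toes and is made almost wholly of fast fibres. The RNA came from whole tissue, where fewer cells of a type and less RNA per cell cannot be told apart.

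Total counts ran from 22829692 to 26037169 in the slow set and from 29288433 to 31342247 in the fast set. In a principal component analysis of the 6 libraries the sets split along the first component, with 61.6% of the variance, and the second had 11.6%. Mitochondrial tRNA took 4.12% to 4.77% of the counts in the slow set and 1.62% to 3.10% in the fast set. Its part in the results was examined only by a refit without its genes. Without the genes for mitochondrial tRNA and rRNA, 4264 genes passed the test described next in place of 4268. Control libraries 3 and 23 stood apart from the others of their groups, and the control values below are also given without them where that moved them. The restriction sets were uneven too. Chi-square per degree of freedom was 89.3 and 86.2 between library 32 and libraries 33 and 35, against 43 between 33 and 35. It was 46.3 and 43.8 between library 12 and libraries 13 and 15, against 24.5 between 13 and 15. For control 3 it was 61.3 and 88.2, against 28.2 between controls 8 and 9. For control 23 it was 144 and 147, against 27 between controls 28 and 29. Library 32 thus stood about as far from its set as control 3 did. Restriction libraries were left out singly, and libraries 12 and 32 were not left out together. Only control libraries were left out as a pair, a choice made after seeing the data.

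Of 14225 genes tested, 4268 (30.0%) differed between the fast and the slow set in edgeR's quasi-likelihood test with Benjamini-Hochberg adjustment at 0.05. Of these, 2130 (15.0% of all tested) were higher in the fast set and 2138 (15.0%) were lower. With library size alone as scaling 1709 were higher and 2334 lower. The libraries of the sets did not overlap in 6963 genes (48.9%), and the median log2 fold change of all tested genes was -0.03. Counts given for a list below are to be read beside these shares, from which some small lists depart little. Expression is given as CPM, a gene's count as a proportion of the library's total after TMM scaling, in the order 12, 13 and 15 for the slow set and 32, 33 and 35 for the fast set. CPM is not divided by transcript length, so it compares libraries and not genes. Fold changes are log2, fast minus slow, ± SE, and "rose" and "fell" are used only of genes that passed the test, in the fast set relative to the slow set. The SE was derived from the test, as the size of the fold change divided by the square root of its F statistic. It is unreliable where a set has almost no counts.

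Most slow contractile genes were far lower in the fast set than in the slow set. Of 13 tested members of the slow contractile list, 12 fell and none rose, and the list's median log2 fold change was -4.45. Myh7, the slow myosin heavy chain, measured 31600, 31200 and 34100 CPM in the slow set and 702, 2090 and 2590 CPM in the fast set. All 3 fast libraries lay far below all 3 slow libraries, with library 32 the lowest, and the log2 fold change was -4.17 ± 0.40 (edgeR adjusted p = 7.5e-06). Tpm3, the slow tropomyosin, measured 12400, 11700 and 11300 CPM in the slow set and 90, 256 and 273 CPM in the fast set, a change of -5.84 ± 0.39. The slow troponin genes Tnnc1, Tnni1 and Tnnt1, which make thin filaments respond to calcium, fell by 4.85, 4.45 and 5.02 on the log2 scale. Myl3 and Myl2, the slow myosin light chains, fell by 4.98 and 3.85, and Myl2 changed by -4.47 without library 33. Atp2a2, the slow calcium pump of the sarcoplasmic reticulum, fell by 4.45, and Casq2, a calcium store protein, by 4.63. Actn2, an alpha-actinin of the Z-disc, fell by only 1.65. Mybpc1, slow myosin-binding protein C, was the member that did not pass, at 7000, 5530 and 6040 CPM in the slow set and 5610, 6410 and 6000 CPM in the fast set. Its sets overlapped (log2 fold change -0.04, edgeR adjusted p = 0.86).

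All 16 tested members of the fast contractile list rose, with a median log2 fold change of 3.34. Myh4, the type IIB heavy chain of the fastest fibres, measured 15, 9.1 and 13.9 CPM in the slow set and 47500, 25700 and 26300 CPM in the fast set. Every fast library was far above every slow library, with library 32 the highest (11.35 ± 1.47). Myh1, the type IIX heavy chain, measured 53.2, 65 and 307 CPM against 18500, 22600 and 29900 CPM, with library 15 the highest of the slow set (7.38 ± 0.93, or 8.66 without library 15). Myh2, the type IIA chain of fatigue-resistant fast fibres, was well expressed in both sets, at 2190, 2730 and 1960 CPM against 6520, 12200 and 8170 CPM (1.96 ± 0.29). The myosin heavy chain genes are close copies of each other, and reads of shared sequence could be assigned to the wrong member.

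Library 15 was the highest of the slow set in 4 of the 16 fast genes, and libraries 12 and 13 in 6 each. Besides Myh1, the genes highest in library 15 were Mybpc2, Actn3 and Pvalb. Mybpc2, fast myosin-binding protein C, measured 5.28, 7.45 and 39.3 CPM against 8090, 6240 and 5480 CPM, a change of 8.57 that became 10.03 without library 15. Actn3, the alpha-actinin of fast Z-discs, measured 8.25, 11.9 and 59.8 CPM against 10300, 7830 and 6870 CPM (8.29, or 9.71 without library 15). Pvalb, the calcium buffer parvalbumin that speeds relaxation, measured 4.84, 3.19 and 24 CPM against 4400, 3290 and 2210 CPM (8.27, or 9.70 without library 15). Not every fast isoform was so exclusive. Atp2a1, the fast calcium pump, measured 2660, 2150 and 2130 CPM in the slow set and 32700, 29800 and 28100 CPM in the fast set (3.71 ± 0.23), Myoz1, which ties Z-discs to calcineurin, rose by 4.28 ± 0.27, and Myl1 and Casq1 rose by 1.07 and 1.08.

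Each slow isoform was also set against its fast partner within a library, as the slow share of the pair's summed CPM. Because the partners differ in length, the share compares libraries and is not a ratio of molecules. For troponin T (Tnnt1 and Tnnt3), the slow share was 88.1%, 81.8% and 87.3% in the slow set and 0.819%, 2.33% and 2.85% in the fast set. For the calcium pumps it was 75.3%, 72.3% and 75.7% against 0.445%, 1.17% and 1.52%. Calsequestrin was a pair in which the fast gene led in both sets, with a slow share of 30.4%, 30.0% and 31.2% against 0.25%, 1.04% and 1.32%. Alpha-actinin and myosin-binding protein C kept a sizeable slow share in the fast set, at 16.9%, 28.5% and 26.5% for Actn2 and at 40.9%, 50.6% and 52.3% for Mybpc1. In all 12 pairs the sets did not overlap, and library 32 had the lowest slow share of all 6 libraries. An exact two-sided permutation test of the log2 ratio gave p = 0.1 for every pair, the smallest p that 3 against 3 libraries allow.

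**Figure D1:**
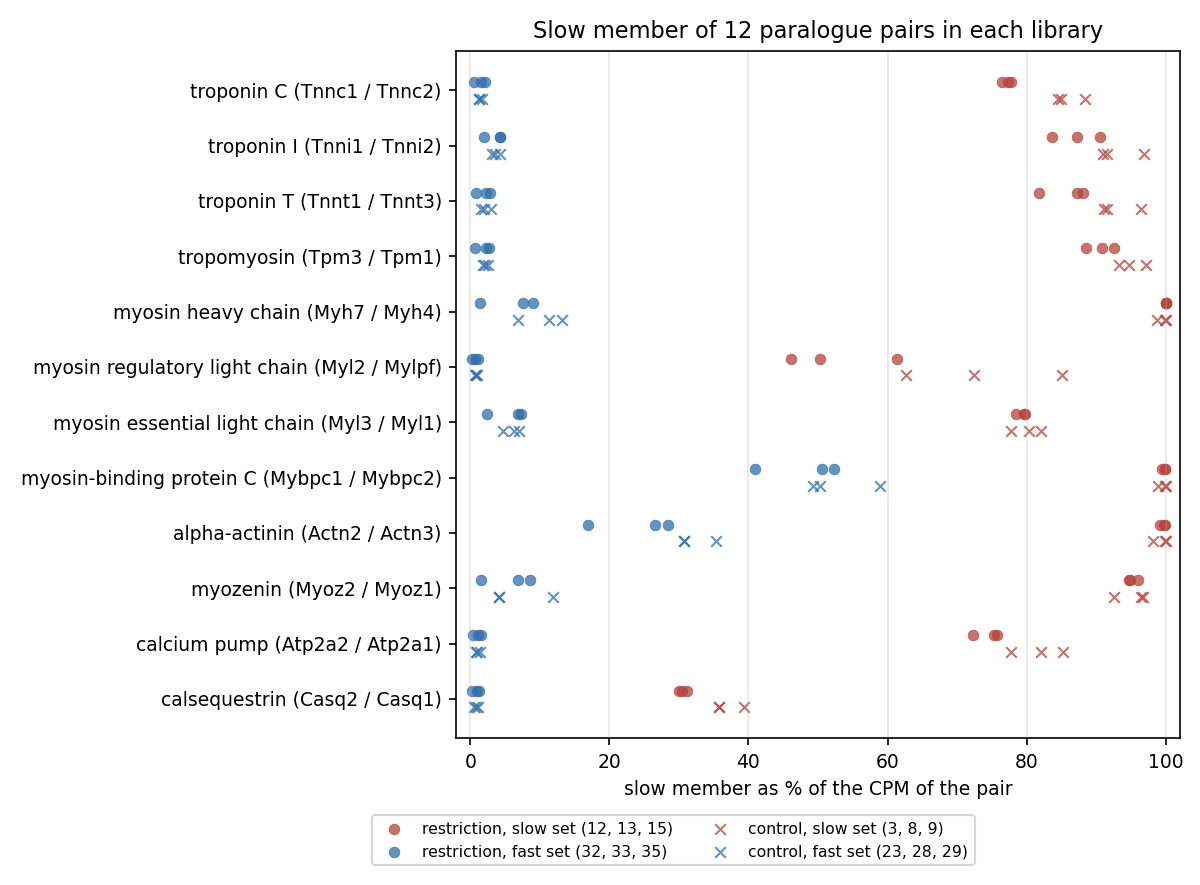
Slow isoform as a percentage of the summed CPM of a slow and fast pair, for 12 pairs of contractile and calcium-handling genes. Each point is a library (circles restriction, crosses control, red slow set, blue fast set), and the slow and fast sets separate in every pair, least widely for calsequestrin.

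Promoter sequences are shown for pairs and a receptor gene whose transcripts separated the sets, to let the letters be read beside the values. They are the 250 bases before the annotated transcription start in RefSeq's GRCr8 assembly, read 5′ to 3′ on the gene's strand. Capitals mark matches to 4 motifs, searched on both strands. E-boxes, here CAGCTG, are bound by MyoD-family factors. The M-CAT motif, CATTCC, is bound by TEAD factors. The TATA motif was searched as TATAAA, and the MEF2 motif, bound by MEF2 factors, by its consensus. CAGCTG reads the same on both strands and was counted once. Myh7 lies at chr15:32438195-32438444 on the minus strand, Myh4 at chr10:52421898-52422147 on the plus strand, Myoz2, the slow myozenin, at chr2:213852779-213853028 on the minus strand and Myoz1, the fast myozenin, at chr15:3693363-3693612 on the plus strand.
Myh7: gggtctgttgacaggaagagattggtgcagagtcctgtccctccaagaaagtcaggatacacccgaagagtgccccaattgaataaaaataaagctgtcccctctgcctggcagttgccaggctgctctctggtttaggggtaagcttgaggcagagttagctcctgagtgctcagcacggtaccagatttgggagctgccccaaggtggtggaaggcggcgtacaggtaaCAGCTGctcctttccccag
Myh4: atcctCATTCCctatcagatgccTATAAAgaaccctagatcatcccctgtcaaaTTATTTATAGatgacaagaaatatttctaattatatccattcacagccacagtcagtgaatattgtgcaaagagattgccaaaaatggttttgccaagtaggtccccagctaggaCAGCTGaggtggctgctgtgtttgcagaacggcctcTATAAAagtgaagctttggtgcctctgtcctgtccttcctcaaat
Myoz2: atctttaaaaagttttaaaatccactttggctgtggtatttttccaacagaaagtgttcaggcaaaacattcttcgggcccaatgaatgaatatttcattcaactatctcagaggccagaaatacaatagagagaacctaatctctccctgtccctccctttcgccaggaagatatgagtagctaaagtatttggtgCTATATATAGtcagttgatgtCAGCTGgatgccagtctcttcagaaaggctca
Myoz1: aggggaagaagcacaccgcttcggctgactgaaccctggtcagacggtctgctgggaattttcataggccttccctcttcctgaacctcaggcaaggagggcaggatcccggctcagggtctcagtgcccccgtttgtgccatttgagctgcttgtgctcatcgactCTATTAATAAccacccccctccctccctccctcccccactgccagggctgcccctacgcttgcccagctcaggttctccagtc

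The Myh7 window had an E-box at -19 relative to the start, and the Myh4 window an E-box at -81, an M-CAT match at -245, a MEF2 match at -196 and TATA matches at -227 and -45, with a further TATA match on the other strand at -193 that overlaps the MEF2 match. Both myozenin windows held a MEF2 match, at -53 in Myoz2 and at -83 in Myoz1, and Myoz2 an E-box at -32. Over all 33469 promoters of the table, 12% held an E-box, 12.1% M-CAT, 12.9% TATA and 2.96% a MEF2 match. Among the 15 promoters matched to the fast contractile list, 4 held a MEF2 match (26.7%, exact binomial 95% interval 7.79% to 55.1%) and 4 an E-box (26.7%). Among the 13 of the slow list, 2 held a MEF2 match (15.4%, interval 1.92% to 45.4%) and 4 an E-box (30.8%, interval 9.09% to 61.4%). The intervals of the lists overlap. Promoters of called genes held an E-box in 13.3% (higher) and 13% (lower) of cases, against 12.6% for all tested genes, and a MEF2 match in 2.29% and 2.3%, against 1.66%. M-CAT was held by 9.71% and 11.2%, against 10.1%. TATA was held by 5.17% (interval 4.21% to 6.27%) and 8.68% (interval 7.41% to 10.1%), against 6.72%. For TATA the intervals of higher and lower genes did not overlap, and the cause was not tested. The intervals count promoter entries, 1875 for 1661 higher genes and 1786 for 1605 lower genes. Entries of the same gene are not independent, and the intervals are not adjusted for the number of motifs searched. The MEF3, NFAT and ERR motifs were also searched and are not marked. NFAT was held by 16.1% and 18.4%, against 18.7%. These matches describe letters and not bound sites.

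Calcium handling beyond the contractile pairs shifted mostly upward. Of 36 tested genes for calcium release and reuptake, 14 rose and 4 fell, and the median log2 fold change was 0.32. Sln, sarcolipin, a small inhibitor of the calcium pump, measured 131, 279 and 234 CPM in the slow set and 0.973, 2.64 and 2.95 CPM in the fast set. No fast library came near a slow library, and the change was -6.61 ± 0.39 (edgeR adjusted p = 1.6e-07). The subunits of calcineurin, the calcium-activated phosphatase that acts on NFAT, rose: Ppp3cb by 2.05 ± 0.22, Ppp3r1 by 1.6 ± 0.16 and Ppp3ca by 1.23 ± 0.16. Rcan1, a calcineurin regulator whose transcript is induced through NFAT, measured 141, 310 and 363 CPM against 43.5, 66.7 and 40.4 CPM (-2.43 ± 0.32). Camk2a, a calcium/calmodulin kinase, rose by 1.69 and Jph2, which holds the sarcoplasmic reticulum to the surface membrane, by 1.49.

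Scaffold genes of the Z-disc and M-band split. Of 30 tested, 6 rose and 10 fell, and 3 rose when library 13 was left out. The median of -0.15 was 0 without library 12, -0.05 without library 35, -0.26 without library 32 and -0.30 without library 13. Ankrd2, a stretch-responsive titin-binding protein, measured 4500, 2570 and 1720 CPM in the slow set and 18.8, 68.8 and 18.7 CPM in the fast set (-6.37 ± 0.66, or -7.28 without library 33). Myom3, an M-band myomesin of slow and IIA fibres, measured 1120, 663 and 647 CPM against 30.6, 71.5 and 43.4 CPM (-4.06 ± 0.36). Both were higher in every slow library than in any fast library. Pdlim1, Xirp1, Synpo2l and Smpx, which bind actin or the sarcomere's edge, fell by 2.75, 1.86, 1.17 and 1.24.

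Transcription factors that set fibre type differed in both directions. Of 35 tested regulators, 17 rose and 5 fell (3 without library 12), with a median of 0.63. Mafa, a large Maf factor known for IIB myosin expression, measured 17.7, 8.6 and 8.3 CPM in the slow set and 130, 167 and 146 CPM in the fast set (3.68 ± 0.32, edgeR adjusted p = 2.9e-06). Sox6, a repressor of slow-fibre genes, measured 2.18, 4.26 and 2.12 CPM against 21.2, 30.6 and 28.5 CPM (3.23 ± 0.37), and Tbx15, a T-box factor of glycolytic fibres, 17.7, 11.3 and 12.9 CPM against 125, 92 and 85.2 CPM (2.85 ± 0.37). In these 3 genes the lowest fast library exceeded the highest slow library. Nfatc3, an NFAT factor, rose by 1.91 ± 0.27. Prox1, which maintains the slow programme, went the other way, from 18.8, 20.5 and 21.2 CPM to 2.01, 1.2 and 2.45 CPM (-3.41 ± 0.29). The myogenic factors moved apart: Myog measured 76.9, 103 and 65.4 CPM against 12.1, 16 and 19.6 CPM (-2.36 ± 0.22), whereas Myod1 rose from 9.8, 11.3 and 8.34 CPM to 31.1, 71.9 and 69.1 CPM (2.55 ± 0.48). Ppargc1a, the co-activator of mitochondrial genes, rose by 0.95 ± 0.26 (15.9, 12 and 15.5 CPM against 22.4, 29.7 and 31.7 CPM).

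Factors that record a muscle's position in the limb also separated the sets. Of 31 tested Hox and limb position genes, 4 rose and 15 fell, with a median of -0.76 (-1.32 when only genes with a mean CPM of at least 1 were tested). En1, a homeobox factor, measured 26.2, 23.9 and 28.7 CPM in the slow set and 0.302, 0.308 and 0.377 CPM in the fast set (-6.30 ± 0.47). Sim2, a bHLH factor, measured 63.8, 64.3 and 61.9 CPM against 0.57, 0.206 and 2.13 CPM (-6.00 ± 0.55, or -7.32 without library 35). For both factors the slow libraries lay close together, and no fast library exceeded the 2.13 CPM of Sim2 in library 35. Hoxc11 and Hoxd9 fell by 1.55 and 2.27, while Lbx1, a factor of migrating limb muscle precursors, rose by 1.04 and Zic1, a zinc finger factor, by 3.32 ± 0.75.

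Of 35 tested genes of glycolysis, glycogen and lactate, the fuel pathway of fast fibres, 23 rose and 6 fell, and the median was 1.69. The subunits of phosphorylase kinase, the switch that starts glycogen breakdown, were among the changes with the smallest p. Phka1, its muscle alpha subunit, measured 56.7, 54.3 and 31.3 CPM in the slow set and 485, 470 and 393 CPM in the fast set (3.25 ± 0.22, edgeR adjusted p = 3.8e-07). Phkg1, the catalytic subunit, and Phkb, the beta subunit, rose by 3.21 ± 0.21 and 2.56 ± 0.16. Pfkm, muscle phosphofructokinase, measured 638, 597 and 625 CPM against 4050, 3900 and 3470 CPM (2.62 ± 0.18), and the sets lay well apart with little spread inside each. Pgm1, which feeds glycogen's glucose units into glycolysis, rose by 2.21.

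The lactate genes showed an isoform switch of the same kind as the sarcomere. Ldha, the subunit of lactate dehydrogenase that favours making lactate, measured 368, 375 and 350 CPM in the slow set and 2590, 2520 and 1840 CPM in the fast set (2.67 ± 0.21). Ldhb, the subunit that favours using lactate, measured 2120, 1900 and 1750 CPM against 138, 330 and 288 CPM (-2.93 ± 0.28). Slc16a3, the lactate exporter MCT4, measured 5.24, 17.4 and 22.1 CPM against 341, 471 and 325 CPM (4.67 ± 0.62). For each of the 3 genes the sets did not overlap.

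**Figure D2:**
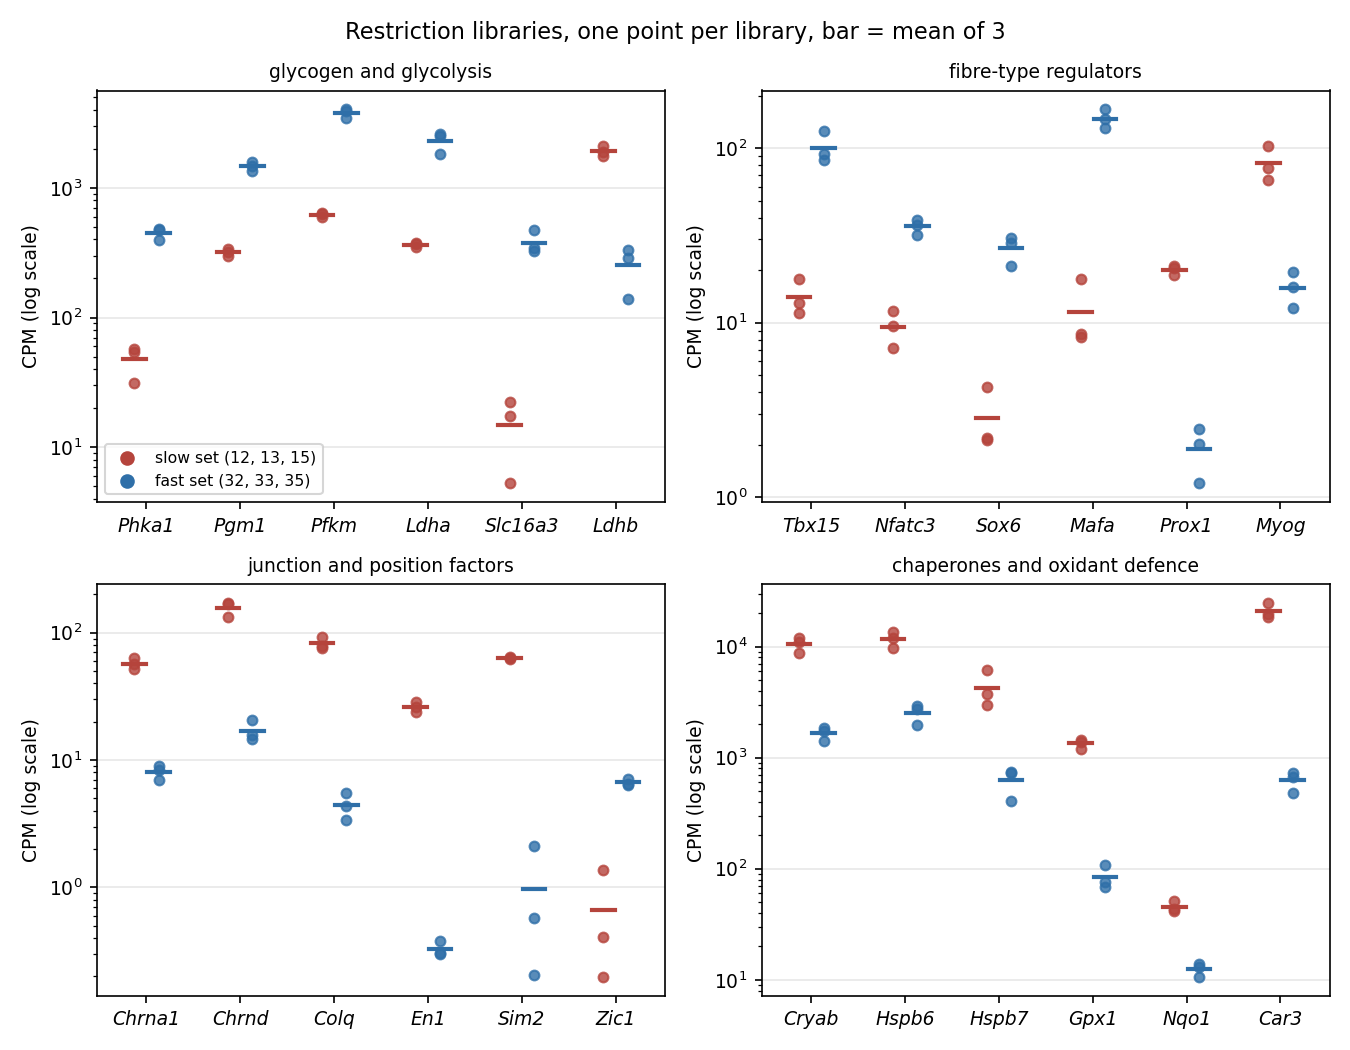
CPM on a log axis of 24 genes in the 6 restriction libraries, in panels for fuel, regulators, synapse and position, and protection from stress. Points are libraries (red slow set, blue fast set) and bars the mean of 3, and in Phka1, Mafa and Gpx1, as in most genes drawn, the points of the sets lie apart.

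Mitochondrial fuel genes did not move as a block. Of 30 tested genes of fatty acid uptake and oxidation, 2 rose and 11 fell (median -0.35, or -0.18 without library 12). Eci1 and Decr1, which let unsaturated fatty acids be oxidised, fell by 1.5 ± 0.19 and 1.2 ± 0.18, and Slc25a20, the carnitine carrier of the inner membrane, by 0.97. Lpl, the lipase that frees fatty acids at the capillary wall, measured 386, 297 and 304 CPM in the slow set and 76.6, 95.5 and 86.4 CPM in the fast set (-1.93 ± 0.34). Acsl6, an acyl-CoA synthetase, was an exception that rose by 2.02 ± 0.23. Of 33 tested genes of pyruvate dehydrogenase and the citric acid cycle, 11 rose and 5 fell (median 0.17, or 0.29 without library 12 and 0.27 without library 32), and the number that fell was 2 without library 12, 13 or 32 and 3 without library 35. Idh3a, a subunit of the NAD-linked isocitrate dehydrogenase, rose by 1.56 ± 0.22 and Idh2, the NADP-linked enzyme, fell by 0.97 ± 0.19. Cs, citrate synthase, measured 168, 128 and 159 CPM against 310, 372 and 321 CPM (1.14 ± 0.23), and Sdha, the flavoprotein of succinate dehydrogenase, 522, 428 and 466 CPM against 641, 842 and 750 CPM (0.66 ± 0.15). Pdk1, a kinase that turns pyruvate dehydrogenase off, fell by 1.76 ± 0.16.

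Of 43 tested nuclear genes of the respiratory chain, 2 rose (1 without library 13, 15 or 33) and 6 fell, with a median of -0.27. Over all tested genes 15.0% rose and 15.0% fell, so the share that fell was near that background. The number that fell depended on the setting: it was 3 without library 32, 12 with library size alone as scaling or without control 23, and 14 in a fit of the 6 restriction libraries alone. Cox6a2, the muscle form of a cytochrome oxidase subunit, measured 6820, 5820 and 5330 CPM in the slow set and 2770, 3060 and 2740 CPM in the fast set (-1.07 ± 0.24, edgeR adjusted p = 0.0046). Cox6a1 and Cox8a, subunits of the same enzyme, fell by 1.29 ± 0.24 and 1.38 ± 0.33, while Atp5a1, the alpha subunit of ATP synthase, rose by 0.80 ± 0.17. The mitochondrial tRNA share given above was lower in every fast library. Beyond the refit without its genes, its part in these values was not tested.

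Of 20 tested genes of ketone and branched-chain amino acid use, 5 rose and 2 fell (median 0.16, or 0.25 without library 32). Bdh1, which oxidises the ketone body 3-hydroxybutyrate, measured 42.2, 40.2 and 34.4 CPM in the slow set and 4.73, 4.73 and 6.37 CPM in the fast set (-2.88 ± 0.25). Acadsb, an enzyme of isoleucine breakdown, measured 1.79, 2.38 and 2.2 CPM against 15.2, 17.9 and 17.1 CPM (2.98 ± 0.41). Each had tight libraries within a set. Among 13 tested genes of creatine, adenine nucleotides and oxygen storage 3 rose and 2 fell, with 1 falling without library 13, 15, 32, 33 or 35 or without control 3, 8, 9, 28 or 29. Over all tested genes 15.0% rose and 15.0% fell, and the counts of the ketone and creatine lists were not far from that background. Ckm, muscle creatine kinase, rose by 1.05 ± 0.20 and Ampd1, muscle AMP deaminase, by 1.10 ± 0.16. Ampd3, another AMP deaminase, went from 123, 113 and 130 CPM to 11.6, 5.11 and 10.5 CPM (-3.74 ± 0.44). Mb, myoglobin, measured 15400, 12200 and 11300 CPM against 8050, 9600 and 9270 CPM and did not pass (-0.53 ± 0.19, edgeR adjusted p = 0.052), although the sets did not overlap.

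Excitability genes were higher in the fast set more often than lower. Of 23 tested ion channels and pumps, 11 rose and 4 fell, with a median of 0.94 (0.55 with limma-voom or with a replicate block). Atp1b2, a beta subunit of the sodium-potassium pump, measured 31.2, 25.6 and 24.3 CPM in the slow set and 487, 325 and 298 CPM in the fast set (3.78 ± 0.26, edgeR adjusted p = 3.3e-07). Scn4a, the sodium channel of the muscle action potential, measured 84.1, 75.4 and 99.3 CPM against 297, 364 and 366 CPM (1.99 ± 0.20). Kcnc1, a fast potassium channel, measured 0.159, 0.538 and 0.488 CPM against 3.39, 15 and 9.44 CPM (4.54 ± 0.74). In all 3 the fast libraries lay above the slow libraries.

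At the neuromuscular junction, 4 of 20 tested genes rose and 9 fell (median -0.29, or -0.17 without library 15), and 2 rose without library 12, 13, 33, 35 or control 8 or with library size alone as scaling. Colq, the collagen tail that anchors acetylcholinesterase, measured 78.4, 92.9 and 76.1 CPM in the slow set and 3.36, 5.48 and 4.39 CPM in the fast set (-4.22 ± 0.22, edgeR adjusted p = 4e-08). Chrnd, the delta subunit of the acetylcholine receptor, measured 167, 172 and 132 CPM against 14.5, 20.8 and 15.8 CPM (-3.21 ± 0.19), and Chrna1, the alpha subunit, 51.5, 56.5 and 63.2 CPM against 6.91, 8.91 and 8.38 CPM (-2.82 ± 0.24). Every slow library was above every fast library in these 3 genes. Chrng, the subunit of the embryonic receptor, measured 4.09, 7.83 and 5.7 CPM against 0.0671, 0 and 0.22 CPM (-5.84 ± 0.80, or -7.25 without library 35). Chrne, the subunit of the adult receptor, was at 21.1, 13.1 and 11.7 CPM against 14.5, 12.8 and 13.4 CPM and did not pass (-0.17 ± 0.25, edgeR adjusted p = 0.64). Schwann cells share this site, and of 10 tested Schwann cell markers 2 rose and none fell, with summed levels of 51.9 to 78.8 CPM in the slow set and 60 to 119 CPM in the fast set. None rose without library 13 or without library 35 and 1 without library 15 or 33, while 1 fell without control 3 or 9, and the markers' part in the junction genes was not tested.

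The promoter of Chrna1 is shown as an example of the junction genes that separated the sets. It lies at chr3:78877354-78877603 on the minus strand of GRCr8 in RefSeq, and the capitals mark E-boxes (CAGCTG) at -75 and -27.
Chrna1: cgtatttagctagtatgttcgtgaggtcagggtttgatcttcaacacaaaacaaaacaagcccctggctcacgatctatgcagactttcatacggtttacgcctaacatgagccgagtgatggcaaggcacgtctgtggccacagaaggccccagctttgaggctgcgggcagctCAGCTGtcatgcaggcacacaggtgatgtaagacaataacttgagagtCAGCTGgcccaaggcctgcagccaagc

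Among the 16 promoters matched to the junction list, 7 held an E-box (43.8%, exact binomial 95% interval 19.8% to 70.1%), against 12% of all promoters. What binds there was not tested.

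Small heat-shock proteins hold sarcomere proteins in shape under load. Of 22 tested chaperones, 9 fell and 1 rose (median -0.50), with none rising without library 13, 15, 32, 33 or 35 or control 8. Cryab, alpha-B-crystallin, measured 12000, 11000 and 8740 CPM in the slow set and 1400, 1840 and 1740 CPM in the fast set (-2.68 ± 0.25, edgeR adjusted p = 5.9e-06). Hspb6 fell by 2.20 ± 0.24 and Hspb1 by 1.6 ± 0.20, and Hspb7 went from 6140, 3730 and 2960 CPM to 732, 738 and 408 CPM (-2.77 ± 0.34). Hspb8, of the same family, had overlapping sets (368, 391 and 337 CPM against 720, 331 and 301 CPM) and did not pass (edgeR adjusted p = 0.44). Of 26 tested antioxidant and glutathione genes, 11 fell and 2 rose (median -0.54), while 7 fell without library 12 or 33 and 1 rose without library 12, 15, 33 or 35. Gpx1, glutathione peroxidase, measured 1440, 1390 and 1200 CPM against 75.6, 108 and 68.1 CPM (-4.0 ± 0.33), and Nqo1, a quinone reductase, 41.7, 51.3 and 43.5 CPM against 13.1, 10.6 and 14 CPM (-1.86 ± 0.20). Gstm2, a glutathione transferase, rose by 1.80 ± 0.41.

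Of 23 tested collagen and matrix genes none rose and 12 fell, or 6 without library 13, and the median was -0.65. Col14a1, a collagen that decorates fibrils, measured 15.2, 30 and 31.6 CPM in the slow set and 2.95, 4.01 and 3.39 CPM in the fast set (-2.89 ± 0.36). Loxl1, which cross-links elastin, fell by 2.38 ± 0.27 and Bgn, the proteoglycan biglycan, by 2.23 ± 0.34. Markers of fibro-adipogenic progenitors, the matrix-making cells between fibres, moved with them: 6 of 9 fell (3 without library 15, 32 or 33) and none rose, and their summed level was 923 to 1210 CPM in the slow set and 475 to 649 CPM in the fast set. Dpt and Pi16 of that list fell by 2.02 ± 0.17 and 1.79 ± 0.29, and no member was at 0. Their part in the matrix values was not tested. Of 15 tested tendon and cartilage genes, 2 rose (1 without library 12 or 33, 4 without library 15) and 3 fell, near the 15.0% of all tested genes that went each way. Fmod, fibromodulin, rose from 57.4, 63.3 and 114 CPM to 140, 211 and 193 CPM (1.22 ± 0.28), and Prg4, lubricin, fell from 57.6, 95 and 144 CPM to 21.5, 21.6 and 22.9 CPM (-2.17 ± 0.30). Chad, chondroadherin, had overlapping sets (9.12, 14.7 and 20.8 CPM against 19.3, 31.5 and 22.5 CPM) and did not pass (0.72, edgeR adjusted p = 0.18), though it passed with a replicate block (0.76, edgeR adjusted p = 0.033).

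Among markers of other cells of the tissue, those of macrophages and adipocytes mostly fell. The other lists below were mixed or had no call. Over all tested genes 15.0% rose and 15.0% fell. Of 12 tested macrophage markers 11 fell and none rose (median -2.0), with a summed level of 256 to 623 CPM in the slow set and 69.3 to 132 CPM in the fast set. Lyz2, lysozyme, measured 67.6, 196 and 185 CPM against 22.6, 17.1 and 24.6 CPM (-2.80 ± 0.33), with library 12 the lowest of the slow set. Of 9 tested adipocyte markers 7 fell and none rose (median -2.02). Their summed level of 19000 to 25200 CPM in the slow set and 685 to 875 CPM in the fast set came mostly from Car3, a carbonic anhydrase that slow fibres also make in bulk (24900, 19600 and 18700 CPM against 477, 732 and 667 CPM, -5.07 ± 0.26). Adipoq, adiponectin, which defines adipocytes, measured 15.9, 37.5 and 27.3 CPM against 3.09, 3.12 and 2.2 CPM (-3.27 ± 0.47). The share of fat cells in the lipid genes above was not tested. Of 10 tested endothelial markers 3 rose and 1 fell (none without library 12, 32 or 33), summing to 318 to 400 CPM against 351 to 446 CPM. Cdh5, the cadherin of vessel walls, rose by 1.29 ± 0.23, and Vwf of the same list fell by 0.71. Of 8 tested smooth muscle and pericyte markers 4 rose (2 without library 13, 15 or 33) and 3 fell, summing to 331 to 436 CPM against 284 to 334 CPM. Of 7 tested satellite cell markers 2 rose (1 without library 13, 15, 32 or 33) and 3 fell (1 without library 33), with 77.2 to 96.8 CPM against 76 to 88.2 CPM in sum, and Pax7, the defining factor, had overlapping sets (-0.51 ± 0.29, edgeR adjusted p = 0.20). No red blood cell marker of 6 tested passed, although 3 fell without control 23 and 1 without control 28.

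**Figure D3:**
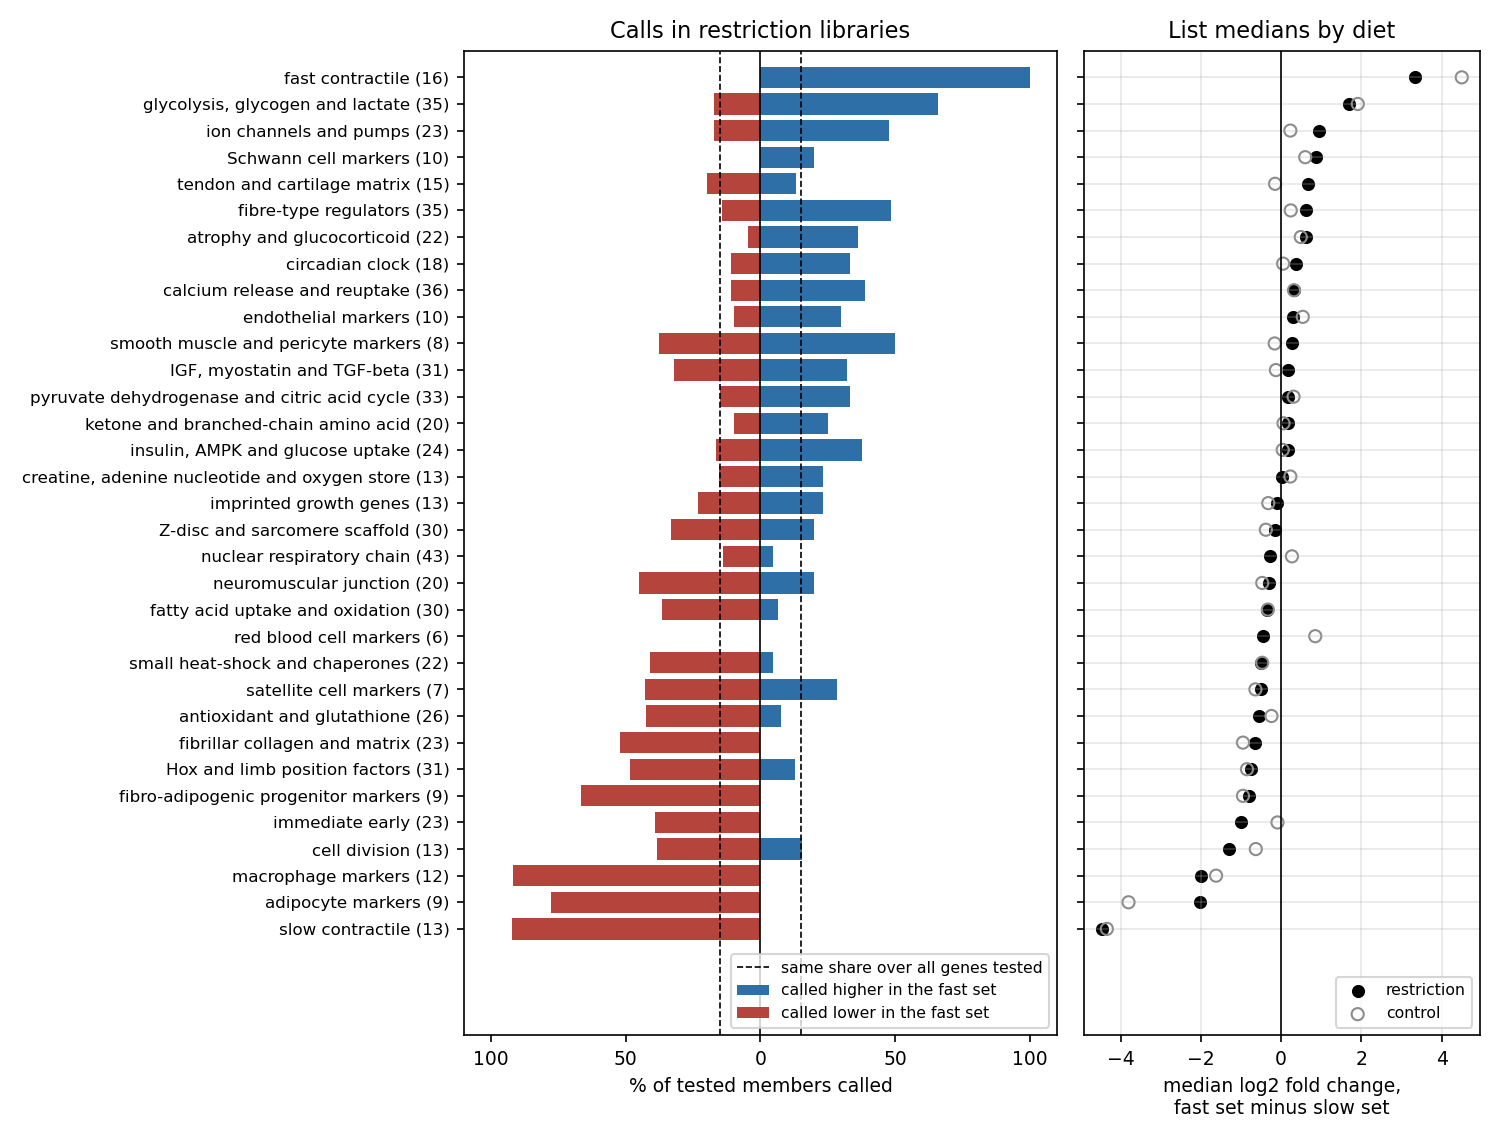
Left, percentage of tested members of each gene list that were higher (right, blue) or lower (left, red) in the fast set, with the number tested in brackets and dashed lines at the 15.0% of all genes. Right, the median log2 fold change of each list in restriction (filled) and control libraries (open), where the fast and slow contractile lists lie at opposite ends.

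Growth signalling genes divided evenly. Of 31 tested genes of the IGF, myostatin and TGF-beta pathways, 10 rose and 10 fell (median 0.18, or 0.03 without library 35). Acvr1b, a type I activin receptor, measured 2.58, 2.88 and 3.21 CPM in the slow set and 21.1, 14.8 and 19.8 CPM in the fast set (2.68 ± 0.37). Smad3, which carries the signal to the nucleus, rose by 1.45 ± 0.24, and Gdf11, a ligand close to myostatin, fell by 1.69 ± 0.24. Igf1, the growth factor, fell from 15.1, 25.1 and 13.9 CPM to 5, 7.82 and 7.59 CPM (-1.41 ± 0.32). Mstn, myostatin, the inhibitor of muscle growth, had no count in any slow library and 3.02, 1.41 and 3.20 CPM in the fast set. Against a limit of 3 counts over the group, it was at least 64.8-fold higher in the fast set. Of 24 tested genes of insulin, AMPK and glucose uptake, 9 rose and 4 fell (2 without library 33). AMPK subunits, which form the cell's energy sensor, moved apart: Prkab2, Prkaa2 and Prkag3 rose by 1.96 ± 0.15, 1.51 ± 0.19 and 2.37 ± 0.32, and Prkaa1 fell by 1.18 ± 0.22. Slc2a4, the insulin-responsive glucose transporter GLUT4, had overlapping sets (589, 438 and 443 CPM against 464, 500 and 413 CPM, edgeR adjusted p = 0.72). Among 13 tested imprinted growth genes 3 rose and 3 fell, and at most 1 rose when any restriction library was left out. These counts were not far from the 15.0% of all tested genes that went each way. Rasgrf1, an exchange factor for Ras, measured 9.16, 12.6 and 6.23 CPM against 0.369, 0.274 and 0.157 CPM (-5.11 ± 0.71).

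Of 22 tested genes of atrophy and glucocorticoid response, 8 rose (5 without library 13) and 1 fell (none without library 13, 15, 32 or 33, 2 without control 23), with a median of 0.61. Fbxo32, the ubiquitin ligase atrogin-1, measured 15.5, 8.79 and 16.2 CPM in the slow set and 194, 85.3 and 122 CPM in the fast set (3.31 ± 0.69, edgeR adjusted p = 0.0026). Fbxo40, a muscle ligase that targets the insulin receptor substrate, rose by 2.35 ± 0.32, and Glul, glutamine synthetase, by 1.93 ± 0.32. Library 33 was the lowest of the fast set in Fbxo32 and Glul. Of 23 tested immediate early genes, 9 fell and none rose (1 without control 23), with a median of -0.99 and with 4 falling without library 13 and 5 without library 32 or with limma-voom. Jund measured 143, 141 and 214 CPM against 58.8, 57.8 and 75.2 CPM (-1.38 ± 0.21), while Fos, at 9.12, 104 and 66.2 CPM against 7.45, 21.4 and 7.44 CPM, had overlapping sets and lost its call without library 13, 15, 32 or 35 (edgeR adjusted p = 0.021 with all, 0.11 without library 13). Of 18 tested clock genes 6 rose (3 without library 13 or 33) and 2 fell (none without library 12, 33 or 35). Arntl, the core clock activator, measured 9.32, 10.4 and 13.7 CPM against 32.9, 23.7 and 25.1 CPM (1.29 ± 0.25), and Per1, a clock repressor, spread as widely within a set (106, 27.1 and 138 CPM) as across sets (96.2, 24.1 and 138 CPM). Among 13 tested cell division genes 2 rose and 5 fell, the latter 2 without library 13 and 3 without library 15, 32, 33 or 35. The genes that rose were Tpx2, a spindle protein, from 3.37, 2.8 and 3.38 CPM to 74.7, 48.5 and 43.6 CPM (4.13 ± 0.53), and Espl1, separase, by 2.62 ± 0.29.

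Some transcripts were counted only, or almost only, in a single set. Zfp474, a zinc finger gene, measured 10.4, 6.72 and 8.87 CPM in the slow set and had no count in any fast library, at least 262-fold lower in the fast set against a limit of 3 counts over the group. Fam216b was at least 144-fold lower on the same limit and Mfsd6l at least 61.1-fold, both also without a count in the fast set. Gnat3, a G protein subunit known from taste cells, measured 23.4, 22 and 19.5 CPM against 0, 0.171 and 0 CPM (-8.50, or -12.24 without library 33). Mettl21c, a muscle lysine methyltransferase, measured 240, 120 and 125 CPM against 0.168, 1.27 and 1.19 CPM (-7.52 ± 0.58). In the other direction, Foxl2, a forkhead factor, and Tmem132b, a membrane protein, had no count in the slow set. Foxl2 measured 3.05, 5.52 and 3.95 CPM in the fast set, at least 105-fold higher, and Tmem132b 2.25, 3.43 and 4.99 CPM, at least 90.7-fold higher.

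The same contrast in the control libraries called 2953 genes (20.8%), 1478 higher (10.4%) and 1475 lower (10.4%) in the fast set. Without control 3 and control 23 together it called 3246 genes, and the restriction comparison, which shares its estimate of spread, 5369. With library size alone as scaling, 906 of 2787 control calls were higher (32.5%). Both diets called 2202 genes, 51.6% of the restriction calls and 74.6% of the control calls, and 2201 of them went the same way. A further 2066 genes were called only in the restriction libraries, of which 1850 had the same sign in the controls, and 751 only in the controls. Across genes, which are not independent replicates, the fold changes of the diets had a Pearson r of 0.738 and a Spearman rho of 0.695 without shared libraries. Being called under 1 diet and not the other is not a test of a difference, and that test follows.

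**Figure D4:**
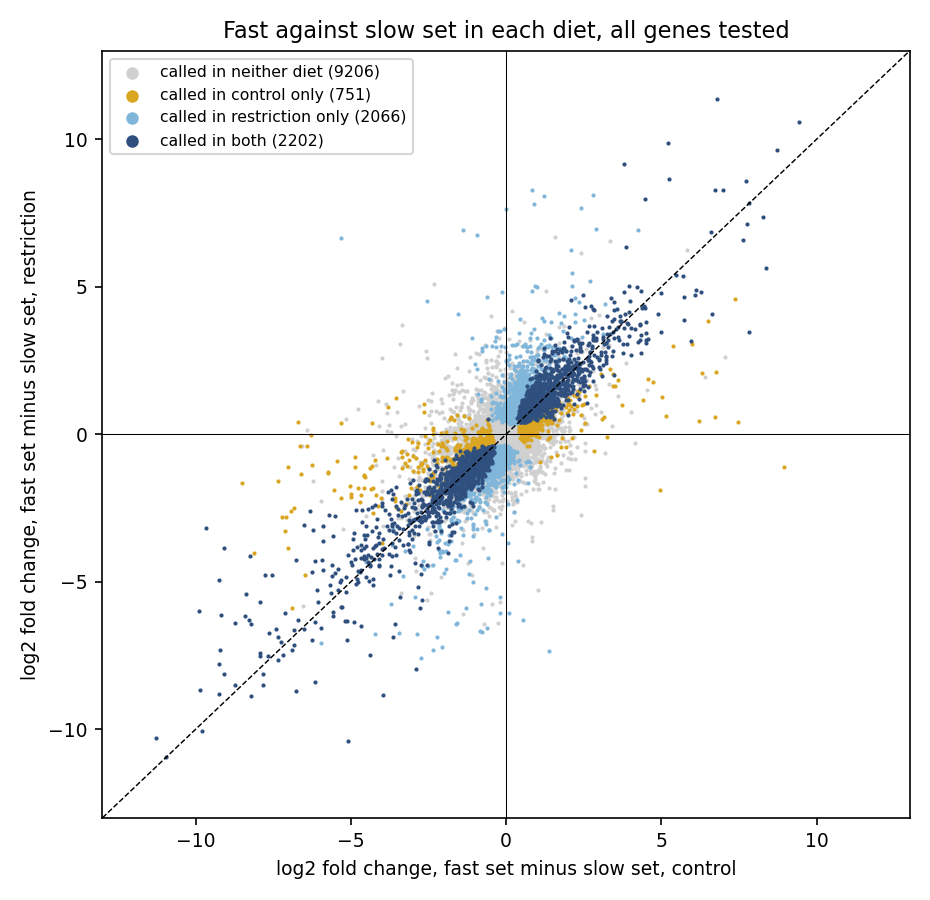
Log2 fold change, fast minus slow, of 14225 genes in restriction (vertical) against control libraries (horizontal), coloured by call. The 2202 genes called under both diets share their sign between diets in all but 1 case, and most of the 2066 called only in restriction libraries share the sign of the controls.

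No gene passed the test of the difference between the diets in edgeR, and 1351 (9.50%) had an unadjusted p under 0.05. DESeq2 called 30 genes, 22 higher and 8 lower, and limma-voom none. Among genes with a symbol of their own, the smallest p was that of Gfod1, which codes for an oxidoreductase domain protein. It measured 33.1, 30.9 and 30.1 CPM in the slow set and 50.7, 68.5 and 63.8 CPM in the fast set of the restriction libraries. In the control libraries it measured 54, 51.1 and 46.9 CPM against 43.7, 42.9 and 40.9 CPM. All fast libraries were above the slow libraries under restriction (0.96 ± 0.14) and below them under the control diet (-0.25, edgeR adjusted p = 0.23), a difference of 1.21 ± 0.20 with an edgeR adjusted p of 0.21. Across the alternative settings that adjusted p ranged from 0.00031 to 0.70, the lowest with DESeq2, and without control 3 and control 23 the difference was 1.18. Lrrfip1, Capns1, Rab12 and Fam168a followed above 0 and Rd3l, Rasl2-9, Sh3rf2, Palmd and Cenpm below 0, each with an edgeR adjusted p of 0.42 and each called by DESeq2. Rab12, a small GTPase, measured 9.44, 6.34 and 8.83 CPM against 43.4, 47.5 and 45.6 CPM under restriction, with a difference between diets of 1.80 (1.46 without control 3 and control 23). Rd3l measured 29.6, 27.1 and 33.3 CPM against 0.201, 0.24 and 0.314 CPM, with a difference of -3.23 (-3.50 without them). Capns1, the small calpain subunit, rested on uneven libraries, at 24.8, 0.754 and 28.2 CPM in the fast restriction set.

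For the contractile lists the diets gave like slow medians and less like fast medians. The slow list had a median log2 fold change of -4.45 under restriction and -4.34 under the control diet. The fast list had 3.34 under restriction and 4.50 under the control diet, and the median of its genes' differences was -0.58. Tnni2, the fast troponin I, measured 1080, 1470 and 1060 CPM in the slow set and 9730, 10900 and 10100 CPM in the fast set under restriction, with a difference between diets of -1.40 (unadjusted p = 0.0028). Tnnc2, Tnnt3 and Tpm1 had differences of -1.12, -1.32 and -1.34, and Myh4 had a difference of 4.58, with control library 3 at 396 CPM in the control slow set. No member passed, and the smallest edgeR adjusted p of the list was 0.42. Without control 3 and control 23 the control medians were -4.29 and 4.43 and the median of the fast list's differences was -1.05, while Myh4's difference was 0.86 and Tnni2's -1.32. In the slow set, the slow share of a pair was below the controls in every restriction library for 7 of the 12 pairs and overlapped for 5. Among the 7, troponin C was at 77.1% ± 0.652 (SD, n = 3) under restriction and 86.0% ± 2.15 (SD, n = 3) under the control diet, and among the 5, myozenin at 95.2% ± 0.716 and 95.3% ± 2.30. In the fast set the shares overlapped for 11 pairs, and for alpha-actinin every restriction library was below the controls. Gaps among the 7 differed in width. The highest restriction share and the lowest control share were 90.6% and 91.0% for troponin I, and 77.7% and 84.5% for troponin C. All pairs come from the same libraries, and their shares were not tested between the diets. How many of all genes do not overlap between the diets in the slow set was not counted.

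The respiratory chain list had a median of -0.27 under restriction and 0.27 under the control diet. Under the control diet 3 of its 43 tested members rose and 1 fell. The median of its genes' differences was -0.49, no member passed, and the smallest edgeR adjusted p was 0.45. Without control 3 and control 23 the control median was -0.05 and the median of the differences -0.12. Acadsb and Ogdh, the latter a subunit of the oxoglutarate dehydrogenase complex, had differences above 0, at 2.37 (unadjusted p = 0.00059) and 1.29 (unadjusted p = 0.0043), or 1.96 and 1.26 without control 3 and control 23. Adipocyte markers had a median of -2.02 under restriction and -3.80 under the control diet, and immediate early genes -0.99 and -0.09. Without control 3 and control 23 the control medians were -3.47 and 0.33.

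**Figure D5:**
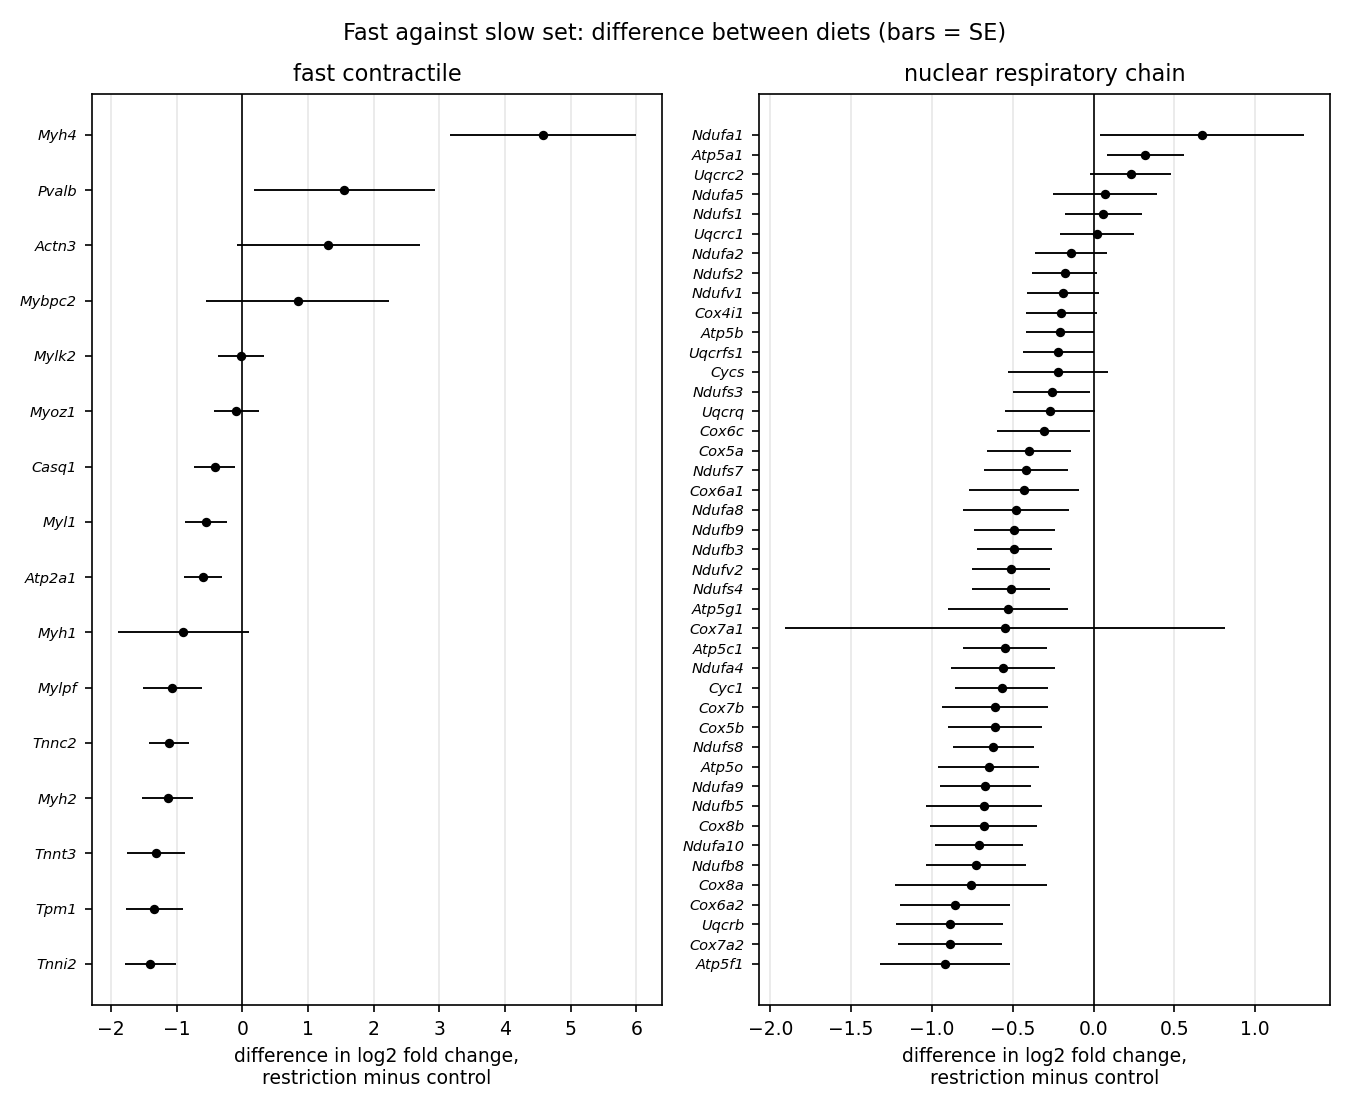
Difference between the diets in the fast minus slow log2 fold change, with SE, for 16 fast contractile genes and 43 nuclear respiratory chain genes. Of the points, 12 of 16 and 37 of 43 lie below 0, and none passed the test after adjustment over all 14225 genes. The share of all tested genes below 0 is not given, and genes measured in the same libraries are not independent. Without the control libraries that stood apart, the median difference of the respiratory chain genes went from -0.49 to -0.12. That of the fast contractile genes went from -0.58 to -1.05.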

How the data were processed

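RNA-seq was measured in 12 muscle libraries, of which the 6 restriction libraries are compared here. The TruSeq RNA kit named in the labels' protocols yields unstranded reads, and a gene cannot be separated from one on the opposite strand. Trimmomatic, HISAT2, featureCounts, DESeq2 and the build Rnor_6.0 are named per the submitters' processing notes. Versions, order of steps and annotation are not given in the sources used. Raw counts, deposited as whole numbers for each gene, were the input. Of its 24648 rows, 18182 carried a current rat symbol and 2119 a synonym in RefSeq's table for another build (GRCr8), which served for names and promoter sequences only. There were 144 names on more than 1 row, which were kept apart.

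Genes were filtered with filterByExpr over the 4 groups and scaled by TMM. The test was edgeR 4.0.16 in R 4.3.3, with quasi-likelihood tests over all 12 libraries, which share an estimate of spread, Benjamini-Hochberg adjustment over all 14225 genes and a threshold of 0.05. The contrasts were fast against slow set under restriction, the same under the control diet, and the difference of both. CPM values are scaled by TMM. The fit was tested on simulated data (13923 genes). Of 100 genes given a 2-fold change it recovered 38% in the restriction contrast and 7% in the difference, and of 100 given a 4-fold change 86% and 69%. The changed genes had a mean CPM of at least 1, and every other gene had the same mean in all groups. In the data 30.0% of genes differed between the restriction sets, which eases the adjusted threshold. The rates for the restriction contrast therefore hold for the simulated setting only. Replicates differed by more than sampling noise (chi-square per degree of freedom 24.5 to 147).

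Alternatives were DESeq2 1.42.0, limma-voom (limma 3.58.1), DESeq2 size factors, library size alone, no filter, mean CPM of at least 1, the 6 libraries of a diet alone, a replicate block on the last digit of the title number, no mitochondrial tRNA or rRNA genes, and leaving out each library. Leaving out control 3 and control 23 together, for all contrasts and list medians, was chosen after seeing the data. Lists are described by counts and medians and were not tested as sets. The members and the 34 lists were chosen with earlier results of these data known. Genes that could be named, not all of which are described, were the 12 largest called changes in each direction with mean CPM of at least 1, no overlap and a symbol of their own, all slow and fast partners, up to 6 called genes per list by smallest p, the 5 smallest p in each direction for the difference, and 8 genes of the series description (Sdha, Cs, Ldha, Igf1, Chad, Fmod, Hspb7, Myog). The genes Myh2, Rcan1, Myod1, Ppargc1a, Zic1, Ldhb, Slc16a3, Mb, Chrne, Hspb8, Pax7, Slc2a4 and Per1 lie outside this rule and were chosen after seeing their values.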

Additional observations from a re-analysis of the deposited data

Results flagged for a closer look

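Gfod1, chosen for its small p in the test of the difference, had its sets ordered in opposite ways under the diets. The control change alone did not pass (-0.25, edgeR adjusted p = 0.23). The fast set was above the slow set in every restriction library and below it in every control library, and the difference of the log2 fold changes was 1.21 ± 0.20. It did not pass in edgeR (adjusted p = 0.21) and passed in DESeq2 (adjusted p = 0.00031), with adjusted p from 0.00031 to 0.70 over all settings run.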

How the results depend on the processing

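The restriction contrast called 4268 genes. Other settings called 4043 (library size alone) to 4848 (restriction libraries alone), DESeq2 4833, limma-voom 4327, and 5369 without control 3 and control 23, and leaving out single libraries 2950 (without 13) to 5160 (without control 23), with 1511 to 2524 higher and 1439 to 2636 lower. The control contrast gave 2030 to 3577 calls when single libraries were left out, 979 to 1800 higher and 1051 to 1777 lower. It gave 906 higher calls with library size alone, which moved the median of all genes to -0.15, and 923 higher calls in a fit of the control libraries alone. The cause was not tested.

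For the difference between diets DESeq2 called 30 genes (22 higher, 8 lower), no filter called 1 (higher), and leaving out single libraries called 0 to 1 (1 higher, without library 33). The sign of Mybpc1 (-0.04) turned to 0.05 without library 12 and 0.02 without library 32, in a range from -0.11 (without 13). That of Fam168a in the restriction contrast (-0.03) turned to 0.03 without library 12, 0.03 without library 32 and 0.01 without library 35, in a range from -0.1 (without 33).

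With a replicate block on the last digit of the title number, 4522 genes were called in the restriction contrast, 4034 of them shared with the 4268, and 3147 in the control contrast. Same-digit libraries deviated together with correlations of 0.0791 to 0.105 under restriction and 0.108 to 0.175 under the control diet, against -0.148 to 0.0252 for others. Every library correlated best with its own digit, a hint from the data and not from the design.

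Library size limits genes of few counts, and 3 libraries a group limit the test of the difference, which recovered 7% of 2-fold changes in simulated counts.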
